A study of Mus musculus with 12 samples.

Results

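Genes known from the endothelium of marrow sinusoids were followed in bulk RNA of mouse bone marrow cells, 10 in all: the scavenger receptors Stab1 and Stab2, the junction and surface genes Cdh5, Pecam1 and Emcn, the receptor kinases Kdr, Flt4 and Tek, the fatty acid carrier Fabp4, and Ushbp1. They are 10 of the 21958 genes of the deposited table, picked by symbol. The list was drawn up with results of these same libraries already known, so their levels, changes and calls below are a description of these libraries and are not independent evidence of a direction. All 10 passed the filter on low counts.

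Wild-type mice gave the bone marrow cells for the 12 libraries, 4 in each of 3 groups. The cornus group had been treated with self-assembled nanoparticles of Cornus officinalis, the model group had been given CTX to bring on myelosuppression, and the control group had no treatment. Strain, age, dose and time of sampling are not given in the labels, which also leave unsaid whether the cornus mice had received CTX and whether each of the 4 samples was from a different mouse; the design text calls them biological replicates. The p-values therefore measure the spread between these samples.

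Sinusoids are the wide, thin-walled vessels through which maturing blood cells leave the marrow. Their endothelium clears waste molecules from the blood by scavenger receptors, is held together by cadherin junctions, and depends on VEGF and angiopoietin signals to grow back after chemotherapy or irradiation. Several of the 10 genes are not made by endothelium alone. Stab1 is also made by macrophages, Fabp4 by adipocytes and macrophages, Pecam1 by platelets and many leukocytes, and Tek by stem cells. In RNA from a whole tissue, fewer cells of a type and less RNA per cell cannot be told apart.

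The letters around the start sites of Stab1, Stab2 and Ushbp1, the members with the highest log2 changes in cornus against model, are shown here; all 3 hold a short motif that is common in promoters. RefSeq promoter sequences of build GRCm38.p6, from 250 bases before to 50 bases after the start, were at hand for 7 of the 10 genes (Stab1, Stab2, Kdr, Flt4, Emcn, Tek and Ushbp1). They are written 5′ to 3′ on the gene's own strand, the minus strand for all 3 genes, at chr14:31168592-31168891 for Stab1, chr10:87007893-87008192 for Stab2 and chr8:71395752-71396051 for Ushbp1. Capitals mark AGGAAG or CGGAAG on either strand, letters bound by ETS factors such as the endothelial regulators Erg and Fli1.
Stab1: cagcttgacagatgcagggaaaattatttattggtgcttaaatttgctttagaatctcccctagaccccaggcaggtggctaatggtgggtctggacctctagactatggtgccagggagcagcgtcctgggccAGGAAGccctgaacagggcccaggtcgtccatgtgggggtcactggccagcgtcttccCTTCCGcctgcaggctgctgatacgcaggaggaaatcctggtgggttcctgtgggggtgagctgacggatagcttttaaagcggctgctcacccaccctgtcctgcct
Stab2: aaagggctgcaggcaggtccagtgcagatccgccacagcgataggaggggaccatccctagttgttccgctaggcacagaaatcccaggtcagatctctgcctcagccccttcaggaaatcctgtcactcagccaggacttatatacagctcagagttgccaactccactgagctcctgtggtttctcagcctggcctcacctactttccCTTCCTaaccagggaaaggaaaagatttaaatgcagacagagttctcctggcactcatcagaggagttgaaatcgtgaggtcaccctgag
Ushbp1: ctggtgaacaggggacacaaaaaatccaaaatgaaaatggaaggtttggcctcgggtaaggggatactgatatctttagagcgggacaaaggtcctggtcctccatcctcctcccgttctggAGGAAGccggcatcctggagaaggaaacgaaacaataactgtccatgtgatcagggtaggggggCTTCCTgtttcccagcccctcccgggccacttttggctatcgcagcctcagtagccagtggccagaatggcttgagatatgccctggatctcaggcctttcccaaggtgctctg

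These ETS letters occurred in the windows of 4 of the 7 genes, Stab1, Stab2, Emcn and Ushbp1, and in 46.5% of 32851 RefSeq promoter windows of the same length. The GATA letters AGATAA were in 1 of the 7, Tek, against 11.2% of all windows. The letters CACACCC (KLF), GTAAACA (FOX) and ACAATG (SOX), read on both strands, were in none of the 7 windows, against 7.95%, 3.65% and 12.6% of all. Counted from the start site, the ETS letters began at -116 and -58 in Stab1, at -40 in Stab2 and at -128 and -64 in Ushbp1. A match is a description of the window only.

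Library totals ran between 13902122 and 19139771 counts. Counts of single members were low: they ran from 10 (Flt4 in model 2, with a 95% exact Poisson interval of 4.8 to 18.4 that covers counting error only) to 1462 (Pecam1 in control 4). Controls 1 to 3 hardly differed from each other: compared pairwise over all genes, their counts gave a chi-square of 1.72 to 1.95 per degree of freedom, whereas every other pair of libraries of 1 group gave 13.6 to 156. Each comparison was therefore also made with controls 1 to 3 summed to 1 sample, and "fell" or "rose" is written of a gene only where it passed in both fits. Hemoglobin transcripts took 0.0218% to 1.57% of the counts in cornus libraries, 0.0249% to 0.942% in model libraries, and 2.45% to 2.49% in controls 1 to 3 but 9.80% in control 4, which stood apart; their part in the results below was not tested.

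Per length, the 10 genes lay far apart. Over the 12 libraries Pecam1 averaged 12.7 ± 2.01 FPKM (SD, n = 12), Fabp4 2.14 ± 1.41, Cdh5 1.17 ± 0.390, Stab2 0.669 ± 0.334, Stab1 0.510 ± 0.252 and Kdr 0.457 ± 0.167 FPKM. Ushbp1 averaged 0.378 ± 0.261 FPKM, Flt4 0.304 ± 0.143, Tek 0.303 ± 0.0981 and Emcn 0.251 ± 0.0722 FPKM. Pecam1 stood clear of all the others. Of the other neighbours in this order, Cdh5 and Stab2 differed by more than the SD of either, and every other pair by less than the larger of its SDs. Endothelial genes were detected in every group: the 22 other endothelial genes of the list used here summed to 106 to 169 CPM in cornus, 125 to 132 in model and 151 to 155 in control libraries. Much of the sum lay in a few genes: in model libraries Adgrl4 averaged 40.7 CPM, Eng 21.5, Icam2 15.7 and Tie1 11.9. Which cells made them was not tested, so the sum does not show that endothelium was present.

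**Figure D1:**
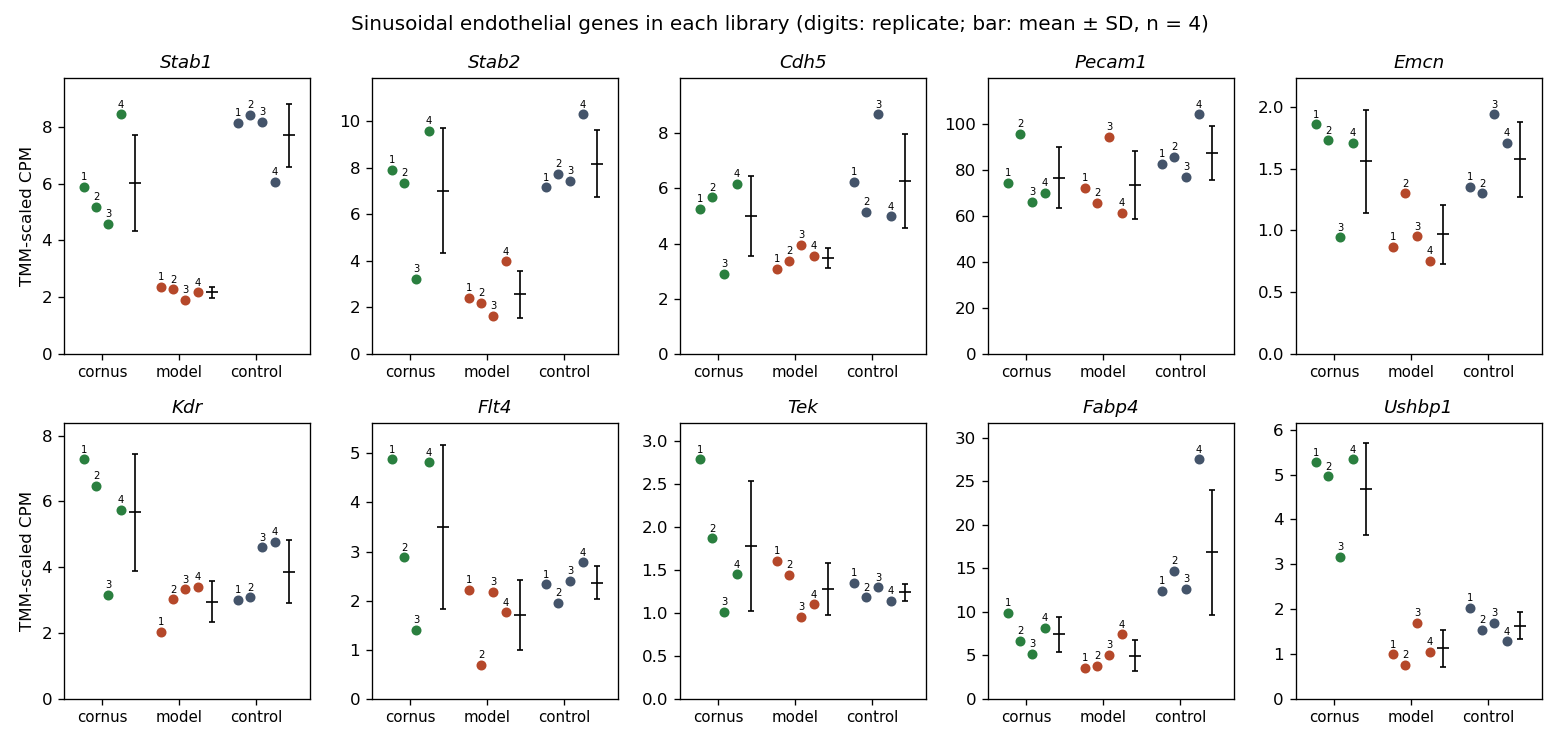
CPM (counts scaled to library size, with TMM factors; linear axis from 0) of each gene in the 12 libraries, with cornus on the left, model in the middle and control on the right; digits give the replicate and bars the mean ± SD of 4 libraries. Stab1 and Ushbp1 have every cornus library above every model library, and cornus 3 is the lowest cornus library in all 10 panels.

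Stab1, a scavenger receptor that takes up modified proteins and lipoproteins (ENSMUSG00000042286, chromosome 14, 30860970 to 30890598 in the deposited coordinates, whose build no source names), was lowest in the model group. Cornus libraries 1 to 4 had 5.88, 5.18, 4.58 and 8.44 CPM, model libraries 2.35, 2.27, 1.90 and 2.16 CPM, and control libraries 8.14, 8.41, 8.17 and 6.06 CPM. All 4 model libraries lay below all 8 others, and the cornus and control libraries overlapped. In the model group Stab1 fell by 1.82 ± 0.21 on the log2 scale against control (SE; edgeR adjusted p = 7.44e-05, and 0.00194 with controls 1 to 3 summed). Between cornus and model the log2 change was 1.47 ± 0.21 (2.78-fold; edgeR adjusted p = 0.0232, and 0.106 with controls 1 to 3 summed), and between cornus and control it was -0.35 ± 0.20 (edgeR adjusted p = 0.162; -0.56 and 0.0263 without cornus 4). Resident macrophages also make Stab1, and their markers were low in the model group as well, as given further on; their part in the change of Stab1 was not tested.

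Stab2, the endocytic receptor that clears hyaluronan from the blood (ENSMUSG00000035459, chromosome 10, 86677062 to 86843889), had 7.90, 7.34, 3.23 and 9.58 CPM in cornus libraries 1 to 4, 2.41, 2.20, 1.63 and 3.97 in the model libraries and 7.16, 7.75, 7.45 and 10.3 in the controls. Every model library lay below every control library, while cornus 3 lay inside the range of the model group and the other cornus libraries lay above it. Stab2 fell by 1.66 ± 0.33 in the model group against control (edgeR adjusted p = 0.00200, and 0.0109 with controls 1 to 3 summed). Its change between cornus and model, 1.45 ± 0.33 (2.72-fold), did not pass (edgeR adjusted p = 0.0722, and 0.157 with controls 1 to 3 summed). With 1 library left out, the edgeR adjusted p ran from 0.0334 (without control 4) to 0.187. Between cornus and control the change of Stab2 was -0.22 ± 0.32 (edgeR adjusted p = 0.592).

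Cdh5, which encodes the cadherin of endothelial adherens junctions (VE-cadherin), had 5.27, 5.68, 2.90 and 6.16 CPM in cornus libraries 1 to 4, 3.09, 3.36, 3.95 and 3.56 in the model libraries and 6.25, 5.15, 8.69 and 4.99 in the controls. The model libraries were close together and all below the controls, and cornus 3 was the lowest of the 12. Its log2 change in the model group against control was -0.84 ± 0.25 (edgeR adjusted p = 0.0168), but it did not pass with controls 1 to 3 summed (0.0713) or without control 3 (-0.65, edgeR adjusted p = 0.0561), the library with 8.69 CPM. Between cornus and model the change was 0.52 ± 0.25 (edgeR adjusted p = 0.259), and between cornus and control it was -0.32 ± 0.25 (0.295).

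Pecam1, an adhesion molecule of the contacts between endothelial cells, and Emcn, a sialoglycoprotein that coats sinusoidal and venous endothelium, overlapped between groups in every comparison. Pecam1 had 66.1 to 95.6 CPM in cornus, 61.1 to 94.1 in model and 76.7 to 104 in control libraries, with log2 changes of 0.06 ± 0.15 for cornus against model and -0.25 ± 0.15 for model against control (edgeR adjusted p = 0.851 and 0.202). It was by far the most abundant of the 10 and also the one whose level moved least between cornus and model. Emcn, with 14 to 33 counts a library, had 1.86, 1.73, 0.943 and 1.71 CPM in cornus, 0.864, 1.30, 0.952 and 0.753 in model and 1.35, 1.30, 1.94 and 1.71 in control libraries. Its log2 changes were 0.69 ± 0.28 for cornus against model (edgeR adjusted p = 0.195) and -0.71 ± 0.28 for model against control (edgeR adjusted p = 0.0606, 0.0368 without model 2 and 0.0410 without cornus 3). In cornus against control Pecam1 had -0.19 ± 0.15 and Emcn -0.01 ± 0.27 (edgeR adjusted p = 0.331 and 0.972).

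The receptor kinases had small differences between model and control and larger ones between cornus and model, none of which passed. Kdr, the main VEGF receptor of blood vessels, had 7.28, 6.47, 3.16 and 5.75 CPM in cornus libraries 1 to 4, 2.04, 3.02, 3.33 and 3.41 in the model libraries and 3.0, 3.08, 4.6 and 4.78 in the controls. Cornus libraries 1, 2 and 4 exceeded all 8 model and control libraries, and cornus 3 did not. The log2 change of Kdr was 0.94 ± 0.28 for cornus against model (edgeR adjusted p = 0.107), -0.38 ± 0.28 for model against control (0.281) and 0.55 ± 0.28 for cornus against control (0.116); without cornus 3 the last was 0.74 and passed (edgeR adjusted p = 0.0300).

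Flt4, the receptor for VEGF-C that marks sinusoidal as well as lymphatic endothelium, had 4.88, 2.88, 1.41 and 4.82 CPM in cornus libraries 1 to 4, 2.22, 0.686, 2.18 and 1.76 in the model libraries and 2.33, 1.95, 2.40 and 2.78 in the controls. The same 3 cornus libraries lay above all the others, and model 2 was the lowest of the 12. Its log2 change was 1.03 ± 0.40 for cornus against model (edgeR adjusted p = 0.180) and -0.46 ± 0.41 for model against control (0.375). Tek, the receptor of angiopoietins, had 2.79, 1.87, 1.01 and 1.45 CPM in cornus, 1.61, 1.44, 0.952 and 1.10 in model and 1.35, 1.18, 1.30 and 1.14 in control libraries. Its groups overlapped, with log2 changes of 0.47 ± 0.31 for cornus against model (edgeR adjusted p = 0.403) and 0.04 ± 0.31 for model against control (0.935, with a negative sign under upper-quartile factors and without model 1 or model 2). In cornus against control Flt4 had 0.57 ± 0.40 and Tek 0.50 ± 0.31 (edgeR adjusted p = 0.254 and 0.192). Stem and progenitor markers, whose cells also make Tek, summed to 234 to 378 CPM in cornus, 287 to 391 in model and 268 to 291 in control libraries, with 1 of 14 called lower and 3 higher in model against control; their part in the level of Tek was not tested.

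Fabp4, a cytosolic fatty acid carrier of capillary endothelium, adipocytes and macrophages, was lower in both groups than in control. It had 9.83, 6.62, 5.12 and 8.13 CPM in cornus libraries 1 to 4, 3.52, 3.78, 5.03 and 7.38 in the model libraries and 12.4, 14.7, 12.6 and 27.5 in the controls. Control 4 was far above the other controls, and no cornus or model library reached the lowest control. Fabp4 fell by 1.76 ± 0.32 in the model group against control (edgeR adjusted p = 0.00117, and 0.00393 with controls 1 to 3 summed) and by 1.17 ± 0.31 in the cornus group against control (0.00981, and 0.0129 summed). Between cornus and model its change was 0.58 ± 0.32 (edgeR adjusted p = 0.318), with overlapping libraries. The summed level of adipocyte markers was 18.7 to 25.1 CPM in cornus, 22.0 to 26.8 in model and 63.2 to 95.1 in control libraries, 5 of 10 were tested, 3 were called lower and 0 higher in model against control (2 in both fits; 1 higher at an unadjusted p under 0.05 and by DESeq2), and Lep was at 0 counts in all 3 groups. In cornus against control 1 was called lower (Scd1) and 1 higher (Plin4). In cornus against model 1 was called lower and 0 higher, with 1 higher at an unadjusted p under 0.05 and a median of 0.03. The gene called was Scd1, with -1.81 ± 0.30 (edgeR adjusted p = 0.0432, and 0.133 with controls 1 to 3 summed). Most of the difference in the sum lay in Scd1, a fatty acid desaturase, which averaged 1.52 ± 0.450 CPM in cornus, 5.43 ± 1.65 in model and 46.9 ± 14.2 in control libraries, while the lipase gene Lipe averaged 17.1 ± 2.50, 15.5 ± 1.18 and 19.6 ± 1.07 CPM (SD, n = 4 each). The part of these cells in the change of Fabp4 was not tested.

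Ushbp1, known from human work as a binding partner of the Usher syndrome protein harmonin (ENSMUSG00000034911, chromosome 8, 71836916 to 71848446), was the only member above control in the cornus group by the test. It had 5.27, 4.96, 3.16 and 5.34 CPM in cornus libraries 1 to 4, 0.988, 0.755, 1.70 and 1.05 in the model libraries and 2.02, 1.54, 1.69 and 1.28 in the controls. All 4 cornus libraries lay above all 8 others, and model and control libraries overlapped. Ushbp1 rose by 1.51 ± 0.27 in the cornus group against control (2.86-fold; edgeR adjusted p = 0.00109, and 0.00929 with controls 1 to 3 summed). Between cornus and model the change was 2.05 ± 0.28 (4.15-fold; edgeR adjusted p = 0.0232, and 0.106 summed), and between model and control it was -0.54 ± 0.28 (edgeR adjusted p = 0.140; -0.79 and 0.0437 without model 3).

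**Figure D2:**
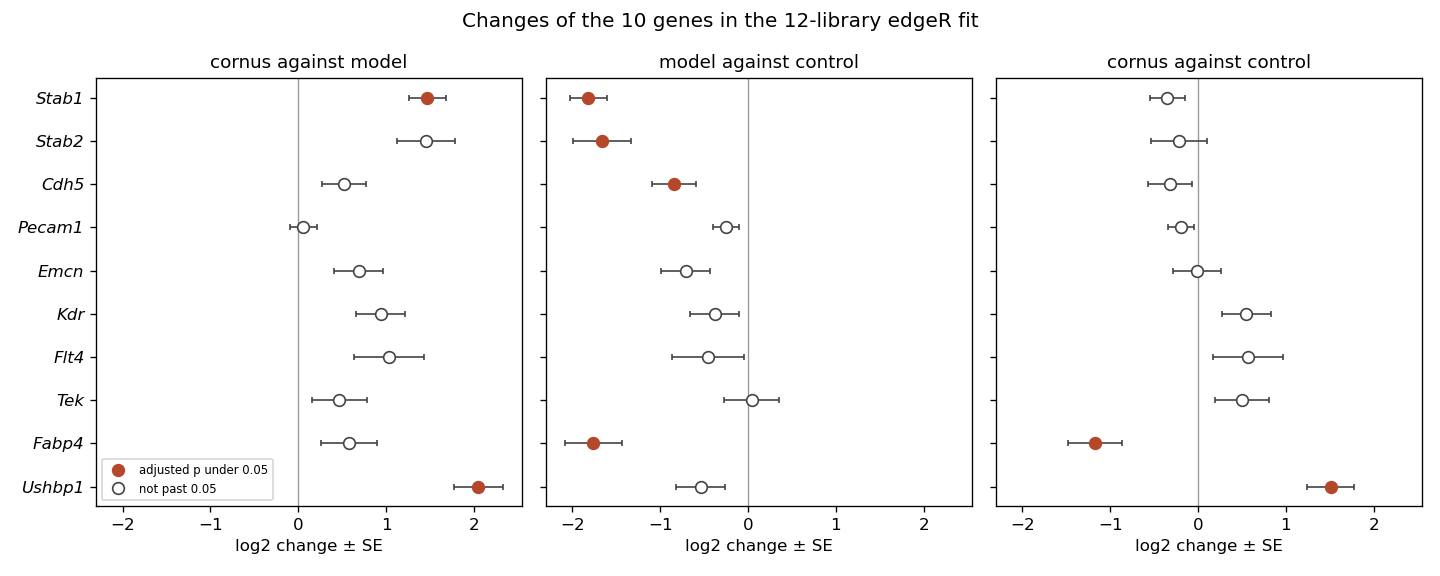
Log2 change ± SE of each gene in 3 comparisons, from 1 edgeR fit of the 12 libraries; filled points have an adjusted p under 0.05 over all genes tested. All 10 points lie above 0 for cornus against model, with Stab1 (1.47) and Ushbp1 (2.05) filled, and 9 of 10 lie below 0 for model against control.

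Counted over the list, 2 of 10 members were called higher and 0 lower in cornus against model, where 0.0797% of the 12549 genes tested were called higher and 0.0717% lower; in both fits together 0 members and 0% of all genes passed. The libraries of 2 members (Stab1 and Ushbp1) did not overlap, with cornus higher, as for 6.05% of all genes, and for 0 members with cornus lower (7.45%). At an unadjusted p under 0.05 the members numbered 6 higher and 0 lower, against 10% and 10.8% of all genes, and DESeq2 called 4 higher (Stab1, Stab2, Kdr and Ushbp1) and 0 lower, against 3.53% and 3.16%. limma on log2(FPKM + 1) also called 2 members higher, though its calls over all genes were 492 lower and 58 higher, where edgeR had 9 and 10. All 10 had a log2 change above 0, with a median of 0.81, against 47.1% of all genes and a median of -0.02. The edgeR calls of Stab1 and Ushbp1 did not last in every setting: both were lost in 12 of 22 alternatives, where their adjusted p-values reached 0.106 while their changes without any 1 library stayed within 1.26 to 1.58 and 1.92 to 2.30. Leaving out control 1, 2 or 3, model 1, 3 or 4, or cornus 1, 3 or 4 lost both calls, with edgeR adjusted p-values between 0.0510 and 0.105, and in each of these fits edgeR called 0 genes of the whole table higher.

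In model against control 4 members were called lower and 0 higher, where 20.9% of all genes were called lower and 23.2% higher. In both fits 3 members were lower (15.8% of all genes) and 0 higher (17.7%). Libraries did not overlap for 4 members that were lower (20.8% of all genes) and 0 that were higher (23.3%). At an unadjusted p under 0.05 the 12-library fit had 5 lower and 0 higher, against 25.7% and 27.2% of all genes; DESeq2 called 4 and 0, against 22.7% and 24.4%. The median log2 change of the members was -0.62, against 0.00 over all genes. In cornus against control 1 was called higher and 1 lower, where 24% and 23.6% of all genes were called. Both calls held in both fits (18.6% higher and 19.7% lower over all genes), and both had libraries that did not overlap (24.2% and 24.4%). The median was -0.10 against -0.02. The comparisons share their model or control libraries, so these counts stand side by side and are not independent of each other.

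All members were at their lowest cornus value in the same library. Cornus 3 was the lowest cornus library for 10 of 10 members, against 21.3% of all genes tested, and it lay within the range of the model libraries for 7 of the 10. In Stab1 and Ushbp1 it lay above that range and in Cdh5 below it. With cornus 3 set aside, the other 3 cornus libraries all exceeded all 4 model libraries in 7 members (Stab1, Stab2, Cdh5, Kdr, Flt4, Emcn and Ushbp1), against 8.03% of all genes; this count was made after the values were seen. The median change of the members between cornus and model was 0.99 without cornus 3, and 8 of 10 were higher at an unadjusted p under 0.05, against 8.05% of all genes in that fit, but 0 members and 0 genes at an adjusted one in edgeR. In the model group no library was lowest in more than 3 members, and in the control group control 4 was highest in 5 and lowest in 4, where it was highest for 44.4% and lowest for 40.5% of all genes.

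**Figure D3:**
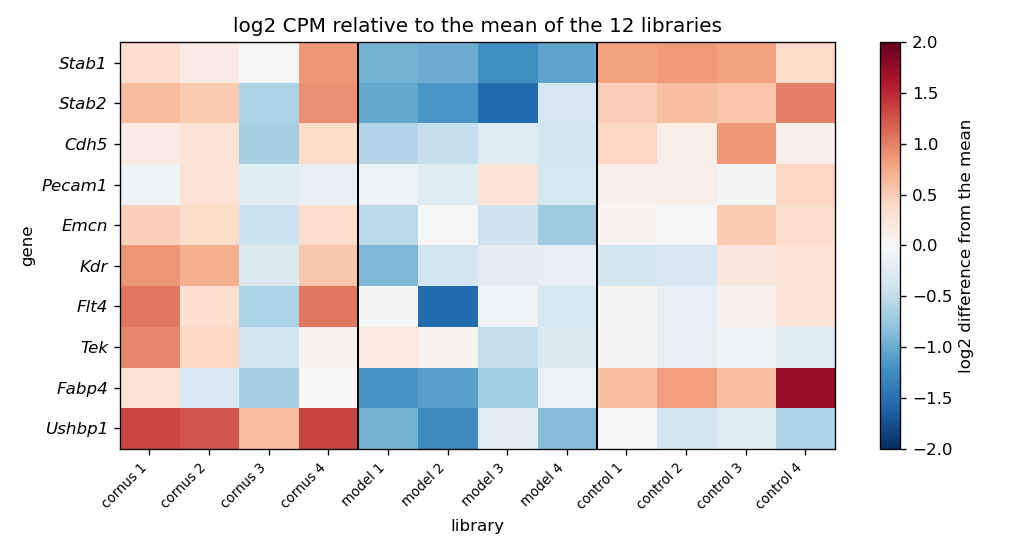
Log2 CPM of each gene less its mean over the 12 libraries, with red above and blue below that mean; columns run from cornus 1 at the left through model to control 4 at the right. The model columns are mostly blue, Ushbp1 is red in the 4 cornus columns only, and cornus 3 is paler or bluer than the other cornus columns in every row.

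Among themselves, the members had profiles of varying likeness. The mean absolute difference between centred log2 CPM values over the 12 libraries was smallest for Cdh5 and Emcn (0.23) and was 0.34 for Stab1 and Stab2, while it was largest for Fabp4 and Ushbp1 (0.99). The same measure was taken over the tested genes averaging at least 1 CPM, with predicted and clone names left out. Closest to Stab2 were Col3a1, a fibrillar collagen (0.31), Stab1 itself (0.34), Hid1 (0.37), Gamt, which makes creatine (0.37), and Ap1m2 (0.38). Col3a1 had 2.4, 3.6, 0.539 and 1.71 CPM in cornus libraries 1 to 4, 0.204 to 1.2 in model and 1.54 to 2.71 in control libraries. The genes closest to Cdh5 were the choline transporter Slc44a1, Lrrc29, Camkmt, the potassium channel Kcnj10 and Rab11fip3, each at 0.21, a value so alike that their order carries no weight.

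Of the 22 other endothelial genes 18 were tested, and they were partly lower in the model group as well. Of the 18, 7 were called lower and 0 higher in model against control (Cldn5, Mmrn2, Icam2, S1pr1, Aplnr, Shank3 and Tspan7), 5 of them also with controls 1 to 3 summed, and the median was -0.45 (0.00 over all genes). At an unadjusted p under 0.05 they numbered 7 lower and 2 higher, and DESeq2 called 7 lower and 1 higher. In cornus against model edgeR called 0, with 6 higher and 1 lower at an unadjusted p under 0.05 and 1 higher by DESeq2, and the median was 0.49. Of the most abundant, the adhesion molecule Icam2 fell by 0.75 ± 0.15 in the model group (edgeR adjusted p = 0.00197), whereas the orphan adhesion receptor Adgrl4, the TGF-beta co-receptor Eng and the angiopoietin receptor partner Tie1 had changes of 0.37 ± 0.17, -0.23 ± 0.17 and 0.32 ± 0.23. Tie1 rose by 0.80 ± 0.23 in cornus against control (edgeR adjusted p = 0.0133, and 0.0375 with controls 1 to 3 summed). Cornus 3 was the lowest cornus library for 12 of these 18 genes.

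Kdr and Flt4 belong to the VEGF family of receptors and Tek to that of the angiopoietins. Of 10 other tested ligands, receptors and co-receptors of these families, 5 were called higher (Vegfa, Flt1, Nrp1, Nrp2 and Svep1) and 1 lower (Vegfb) in model against control, and 6 higher (Tie1 in addition) and 1 lower in cornus against control; with controls 1 to 3 summed as well, 4 and 1, and 5 and 1, passed. The median was 0.59 in model against control, 0.38 in cornus against model and 0.84 in cornus against control, where all genes had 0.00, -0.02 and -0.02. Vegfa, the main ligand of Kdr, averaged 76.1 ± 16.7 CPM in cornus, 64.2 ± 15.1 in model and 33.2 ± 3.36 in control libraries (SD, n = 4 each), and rose by 0.95 ± 0.18 in the model group (edgeR adjusted p = 0.00161) and by 1.2 ± 0.18 in the cornus group (0.000491) against control. Its co-receptor Nrp1 rose by 1.35 ± 0.33 and 1.40 ± 0.34 in the same comparisons (edgeR adjusted p = 0.00696 and 0.00565), while Vegfb fell by 0.82 ± 0.21 and 1.01 ± 0.21 (0.00813 and 0.00282). In cornus against model edgeR called 0 of the 10, with 2 higher and 0 lower at an unadjusted p under 0.05 and 0 by DESeq2.

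Among 12 tested partners of endothelial junctions, 2 were called lower and 5 higher in model against control (2 and 2 also with controls 1 to 3 summed), and 0 lower and 4 higher in cornus against control (0 and 3), with medians of 0.07 and 0.41. Vcl, which ties cadherin junctions to actin, rose by 1.14 ± 0.29 in the model group and by 1.62 ± 0.29 in the cornus group against control (edgeR adjusted p = 0.00807 and 0.00123). The catenins bind VE-cadherin or link it to actin. In model against control Ctnnb1 had a log2 change of 0.25 ± 0.09 (edgeR adjusted p = 0.0441, and 0.102 with controls 1 to 3 summed), Ctnna1 of -0.06 ± 0.08 and Jup of -0.35 ± 0.18. In cornus against model edgeR called 0, with 5 higher and 1 lower at an unadjusted p under 0.05, while DESeq2 called 3 higher and 1 lower, and the median was 0.55.

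Of 15 tested transcription factors of endothelial cells, which blood cells also use, 5 fell (Ets2, Gata2, Klf2, Sox18 and Foxo1) and 1 rose (Erg) in model against control, in both fits, with a median of -0.30. Erg averaged 130 CPM in cornus, 107 in model and 70.0 in control libraries and rose by 0.62 ± 0.14 in the model group and by 0.89 ± 0.14 in the cornus group against control (edgeR adjusted p = 0.00395 and 0.000509). Fli1 rose by 0.41 ± 0.10 in cornus against control (0.00590), and Lmo2 and Lyl1 had changes between -0.11 and 0.14 in every comparison. In cornus against model edgeR called 0 factors, with 3 higher at an unadjusted p under 0.05 and 1 higher by DESeq2, and the median was 0.18.

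Genes of fatty acid handling, the process Fabp4 serves, were called lower in 4 of 8 tested and higher in 0 in model against control (Pparg, Slc27a1, Slc27a4 and Lipe; 3 in both fits), with 0 higher at an unadjusted p under 0.05 and by DESeq2 and a median of -0.50. Pparg and Lipe are also among the adipocyte markers called lower, so they are counted in both lists. The fatty acid transporter Slc27a4 fell by 0.96 ± 0.21 in the model group (edgeR adjusted p = 0.00343) and had a change of 0.89 ± 0.21 in cornus against model (0.0729). Cd36, the fatty acid translocase, had -1.45 ± 0.76 and 0.34 ± 0.75 in those comparisons and passed in neither. The lipase gene Pnpla2 had -0.09 ± 0.10 and -0.31 ± 0.10, and the carrier Fabp5 -0.13 ± 0.31 and -0.21 ± 0.31, and neither gene passed in either comparison. In cornus against control 2 of the 8 were called lower in both fits (Slc27a1 and Pnpla2) and 0 higher, with a median of -0.37. The change of Pnpla2 was -0.39 ± 0.10 (edgeR adjusted p = 0.00899, and 0.0439 with controls 1 to 3 summed).

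Of 11 tested other sinusoidal and venous genes 0 were called lower and 3 higher in model against control (Icam1, Sele and Vwf; 1 in both fits), with 1 lower at an unadjusted p under 0.05, 0 lower by DESeq2 and a median of 0.26. The inhibitory Fc receptor Fcgr2b and the adhesion molecule Vcam1 each had a change of 0.26 ± 0.19, the chemokine-binding receptor Ackr1 one of -1.86 ± 0.82 (edgeR adjusted p = 0.0830), and Icam1 one of 0.85 ± 0.25 (0.0177, and 0.0655 with controls 1 to 3 summed). In cornus against model edgeR called 0 of the 11, with 2 higher and 1 lower at an unadjusted p under 0.05 and a median of 0.19. In cornus against control 3 were called higher (Sele, Selp and Vwf, 2 of them in both fits) and 0 lower, with a median of 0.35. Selp and Vwf are also in the list of megakaryocyte and platelet markers given further on, so their calls are counted in both lists. Cornus 3 was the lowest cornus library for 6 of the 11. Of 8 arteriolar genes 3 were called lower and 2 higher in model against control. Of 6 lymphatic markers 3 were tested, and 1 was called lower (Reln) and 0 higher in model against control. Mmrn1 averaged 25.3 ± 18.9 CPM in cornus, 13 ± 5.43 in model and 5.87 ± 1.49 in control libraries. Lyve1 averaged 4.74, 1.98 and 2.79 CPM, and Reln 4.15, 1.73 and 13.8 CPM in the same order. The lymphatic markers summed to 31.6, 64.6, 9.09 and 33.3 CPM in cornus libraries 1 to 4. Cornus 3 was thus the lowest cornus library, as for the megakaryocyte and platelet markers given further on. Which cells made Mmrn1 was not tested, so its level does not show that lymphatic endothelium was present. Among the untested, Prox1, the factor that defines lymphatic endothelium, was at 0 counts in every control library but not throughout cornus or model. Ccl21a was at 0 in all 12.

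Markers of other marrow cells moved beside the members. Of 10 leukocyte markers 7 were called lower and 2 higher (Mpo and Elane) in model against control, 6 and 2 in both fits, with a median of -1.55. They summed to 24667.2 to 44696.4 CPM in cornus, 20748.6 to 29783.8 in model and 29565.8 to 42584.7 in control libraries. Resident macrophage markers summed to 579 to 649 CPM in cornus, 436 to 564 in model and 697 to 761 in control libraries, with no overlap between groups, and 10 of 17 tested fell and 0 rose in model against control in both fits, with 1 higher at an unadjusted p under 0.05, 0 higher by DESeq2 and a median of -1.04. C1qa, a complement gene of tissue macrophages, fell by 1.72 ± 0.35 (edgeR adjusted p = 0.00240), the transferrin gene Trf by 1.30 ± 0.12 (2.95e-05) and the heme-degrading Hmox1 by 1.25 ± 0.15 (0.000112), while the iron exporter Slc40a1 had -0.25 ± 0.16 (0.207). Stromal and pericyte markers summed to 101 to 286, 51.3 to 78.9 and 128 to 206 CPM in cornus, model and control libraries, and 6 of 14 were called lower and 1 higher in model against control (4 and 1 in both fits; median -0.50). Col1a1, a collagen of bone-forming cells, had 10.1, 19.4, 33.2 and 103 CPM in cornus libraries 1 to 4, 4.9 to 8.31 in model and 32.3 to 58.0 in control libraries, so that cornus 4 alone set much of the cornus mean. Cxcl12, the niche chemokine, averaged 38.6 ± 11.7 CPM in cornus, 18.9 ± 8.23 in model and 38.8 ± 8.08 in control libraries (SD, n = 4 each). Both fell in the model group against control, by 2.52 ± 0.58 and 1.04 ± 0.31 (edgeR adjusted p = 0.00462 and 0.0164). In cornus against model edgeR called 0 genes of the macrophage, stromal and leukocyte lists. At an unadjusted p under 0.05, 11 macrophage, 7 stromal and 3 leukocyte genes were higher, and DESeq2 called 4, 3 and 2 higher. The medians were 0.57, 0.91 and 0.39.

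Megakaryocyte and platelet markers, whose cells also make Pecam1, were also lowest in cornus 3 among the cornus libraries. They summed to 1133.9, 1677.6, 268 and 971 CPM in cornus libraries 1 to 4, to 318, 618, 779 and 355 in the model libraries and to 361, 360, 364 and 267 in the controls, and cornus 3 was the lowest cornus library for 13 of 13. Of these, 11 were called higher and 0 lower in cornus against control (4 in both fits), and 0 in cornus against model, with 3 higher at an unadjusted p under 0.05 and 0 by DESeq2; the medians were 1.51 and 0.93. Ppbp, a platelet chemokine, had 319, 423, 31.2 and 214 CPM in cornus libraries 1 to 4, 68.6 to 164 in model and 29.2 to 50.1 in control libraries, and rose by 2.51 ± 0.58 in cornus against control (edgeR adjusted p = 0.00451). Cornus 3 was also the lowest cornus library for 9 of 17 macrophage and 9 of 14 stromal genes but for 0 of 10 leukocyte markers. The part of these cells in the values of the members was not tested.

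**Figure D4:**
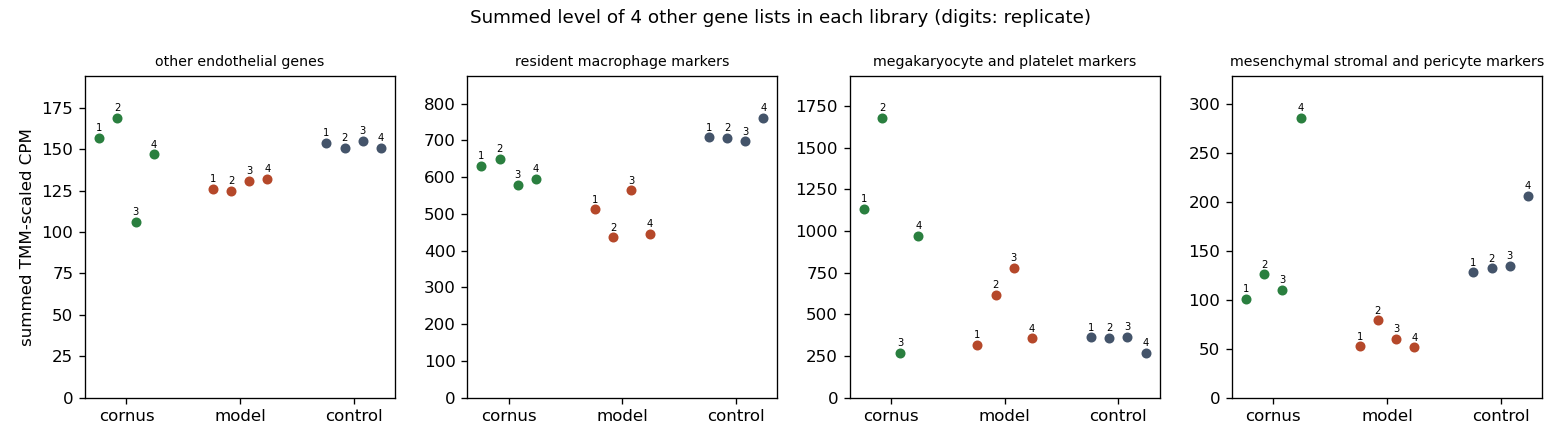
Summed CPM (TMM-scaled, linear axes from 0) of 4 other gene lists in each library, with cornus on the left, model in the middle and control on the right; digits give the replicate. Macrophage markers are lowest in the model group (436 to 564 CPM), and cornus 3 (268 CPM) lies far below the other cornus libraries for megakaryocyte markers.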

How the data were processed

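Polyadenylated RNA of bone marrow cells was sequenced in 12 libraries. The deposited table held whole-number counts per gene, FPKM and gene lengths, which the authors made with fastp 0.22.0, HISAT2 2.1.0 and HTSeq 0.9.1, per the submitters' processing notes. Within each library the FPKM values were proportional to count over length. The genome build, annotation and strand setting are not given in the sources used here. The 51 genes without a symbol stayed in the tests.

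All 12 libraries entered 1 quasi-likelihood fit of the counts by edgeR 4.0.16 under R 4.3.3, after filterByExpr and with TMM factors, and p-values were adjusted by Benjamini-Hochberg over the 12549 genes that passed the filter, with a threshold of 0.05. CPM values (counts scaled to library size) use TMM factors, with a prior count of 2 on the log2 scale. The alternatives were DESeq2 1.42.0, other factors and filters, limma 3.58.1 on log2(FPKM + 1) and log2(FPKM + 0.1), which understates changes of low genes, only the 2 groups compared, a replicate block, controls 1 to 3 summed, and each library left out. The edgeR step was run on simulated data as a self-test of the code. The simulated libraries were independent, unlike the nearly identical controls 1 to 3, so the self-test does not bear on the calls given here. Exact Poisson intervals (95%) cover counting error only. Levels are compared between genes in FPKM. CPM, which is not scaled to gene length, is set side by side for different genes only as parts of a list sum.

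The members and gene lists were chosen with earlier results of these data known. Some genes are in more than 1 list, so the counts of different lists are not independent of each other. The text names all 10 members, genes among the 4 most abundant (FPKM) of each list it describes, and the 5 genes closest to Stab2 and to Cdh5. The closest genes were sought among tested genes averaging at least 1 CPM, leaving out predicted and clone names. Other list genes are named as the calls behind a count or as defining markers, a choice made after their values were seen.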

Additional observations from a re-analysis of the deposited data

Results flagged for a closer look

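In the control group, Stab1 was lowest in control 4, at 6.06 CPM against 8.14 to 8.41 in the other 3. Fabp4 was highest in the same library, at 27.5 CPM against 12.4 to 14.7 in the other controls; without control 4 the fall of Fabp4 in the model group was still called. Emcn was lowest in cornus 3, at 0.943 CPM against 1.71 to 1.86 in the other cornus libraries, where all other members were lowest too. Each stood apart by Dixon's criterion for 4 values (0.829), which chance meets in about 1 of 20 groups, and 30 groups were examined. That rate supposes 4 independent values, which does not hold for the controls, since controls 1 to 3 were nearly identical.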

How the results depend on the processing

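Of 660 values of single members under the alternatives, 614 kept their direction and side of the threshold, 26 lost and 10 gained a call, and 10 changed sign. The 2 members called higher in cornus against model became 4 with DESeq2 and 0 with only the 2 groups compared, with the replicate block and with controls 1 to 3 summed, and ranged from 0 to 3 when 1 library was left out. The 4 called lower in model against control ranged from 3 to 6 in those leave-one-out fits (3 without control 3, 6 without model 3), and the 1 lower and 1 higher in cornus against control from 1 to 2 each (2 lower without cornus 4, 2 higher without cornus 3).

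Sign changes occurred only in comparisons in which the member passed in neither fit. Tek in model against control was -0.01 with upper-quartile factors, -0.10 without model 1 and -0.03 without model 2 (up to 0.15 without model 3). Pecam1 in cornus against model was -0.04 and -0.05 in FPKM (pseudocounts 1 and 0.1) and -0.07 without cornus 2 (up to 0.20 without model 3). Against control, Stab2 in cornus was 0.02 without cornus 3 (-0.41 without cornus 4), and Emcn 0.10 without control 3, 0.02 without control 4 and 0.16 without cornus 3. The causes were not tested.

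Over all genes, the 9 lower and 10 higher calls in cornus against model became 396 and 443 with DESeq2, 6 and 6 with no filter, 492 and 58 or 473 and 50 with limma on FPKM (pseudocounts 1 and 0.1), 536 and 499 without control 4, and 0 and 0 with the block, the 2 groups alone or the controls summed. On the scale of log2(FPKM + 0.1) the median gene moved to -0.13, against -0.02. For each gene, the log2 CPM of each library was taken less the mean of its group. Correlations of these differences between same-numbered libraries of different groups ran from -0.135 to 0.450. Those between differently numbered libraries ran from -0.486 to 0.368. The ranges overlapped, and most controls were nearly identical to each other. The correlations therefore cannot decide whether the replicate numbers pair the libraries. Under the block 4 members stayed lower in model against control.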
